A study of Homo sapiens with 8 samples.

Results

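The HOX cluster genes are the 39 protein-coding genes whose symbol is HOXA, HOXB, HOXC or HOXD followed by a number, out of 20033 protein-coding genes in the RefSeq table of GRCh38.p14. The rule uses symbol and position and no measured value, though the group was taken up with earlier results of these data known. They lie in 4 clusters, with 11 genes in HOXA (chromosome 7), 10 in HOXB (chromosome 17), 9 in HOXC (chromosome 12) and 9 in HOXD (chromosome 2). The data were read in windows from 20 kb before the lowest gene start to 20 kb after the highest gene end of each cluster. These are chr7:27072993-27220091, chr17:48508526-48748750, chr12:53918831-54076030 and chr2:176067487-176210907 on hg38. The windows held 30 of the 33478 regions bound by RUNX1 in at least 1 library.

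CUT&RUN with an anti-HA antibody was used to map RUNX1 binding in HEL, a human leukemia line that carries traits of red cell and platelet precursors. In this assay an antibody directs a nuclease to its target in permeabilized cells, and the released fragments are sequenced. All lines were HEL cells transduced and kept in 2 µg/ml puromycin, with 2 biological replicates of each. The transduced protein was HA-tagged RUNX1 in its wild-type form (WT) or as the variants RUNX1-4A and RUNX1-4D, and control cells carried an empty vector. By the usual naming, 4A replaces phosphorylated residues with alanine and 4D with aspartate, which mimics phosphorylation. The 6 peak lists are those of WT, 4A and 4D, all called against the empty vector line. Whether all lists share the same background libraries is unknown from the sources used here. The cells also make their own RUNX1, which the HA antibody does not read. The promoter that drives the transduced genes, and whether the lines are clones, are unknown from the sources used here. The lists hold no RNA measurement, so neither the identity of the cells nor the expression of HOX genes was measured.

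HOX genes encode homeodomain transcription factors that give cells their position along the body axis. Within a cluster the genes stand in the order of the body regions they pattern, from paralog group 1, the most anterior, to group 13, the most posterior. In blood, HOXA9 and its neighbours, together with the cofactors MEIS1 and PBX, support stem and progenitor cells and are turned down as cells mature, and their persistent expression is a feature of several acute leukemias. The clusters are kept active by the MLL (KMT2A) and menin complex, silenced by Polycomb proteins and parted by CTCF. The clusters also hold microRNA genes of the miR-10 and miR-196 families, several of whose known targets are HOX messenger RNAs.

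Sequences are shown for the only listed HOX gene promoter that a peak covered whole, and for a promoter with the RUNX core motif and no peak. MicroRNAs whose genes lay near bound regions are shown as well. All are from RefSeq tables on GRCh38.p14. Promoters were listed for 20 of the 39 HOX genes. The motif searched was TGNGGT on both strands, of which TGTGGT is the commonest RUNX core, with matches in capitals. TGTGGT was found in 13.1% of all 35116 listed promoters, each of 300 bases from 250 before to 50 after a start, and TGNGGT in 43.2%. The first sequence is the 250 bases before the HOXA13 start (chr7:27200092-27200341, minus strand), which the replicate 2 peaks of WT, 4A and 4D cover, and which is shared in part with the promoter of HOTTIP, a long noncoding RNA of the HOXA cluster. It holds TGGGGT, a match to TGNGGT, and no TGTGGT. The second is the 250 bases before the HOXD10 start (chr2:176116528-176116777, plus strand), which hold TGTGGT 43 bases before the start and which no peak of the 6 lists overlapped.
HOXA13 promoter: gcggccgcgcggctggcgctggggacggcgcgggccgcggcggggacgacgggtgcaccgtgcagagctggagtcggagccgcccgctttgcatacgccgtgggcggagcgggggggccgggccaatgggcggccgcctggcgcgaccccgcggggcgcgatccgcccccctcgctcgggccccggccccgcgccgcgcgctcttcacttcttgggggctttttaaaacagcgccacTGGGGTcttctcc
HOXD10 promoter: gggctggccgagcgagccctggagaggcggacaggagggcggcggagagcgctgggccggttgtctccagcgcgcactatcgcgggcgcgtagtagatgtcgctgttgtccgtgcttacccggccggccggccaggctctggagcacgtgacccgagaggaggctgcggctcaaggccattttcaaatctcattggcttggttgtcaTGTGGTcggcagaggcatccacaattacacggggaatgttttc

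Within the windows 56 promoters of 43 genes were listed, noncoding genes included. Peaks overlapped 4 of them, those of HOXA13, HOTTIP, HOXD8 and LOC100129455, a noncoding gene inside HOXD8. TGTGGT was found in 6 of the 56, and in 0 of the 4, beside 13.1% of all listed promoters. These are not independent counts. HOXC4 and HOXC5 list the same stretch, which holds the motif, and the promoters of HOXA13 and HOTTIP overlap. That of HOXD8 was reached by 5 bp in 4A replicate 2 alone. A match is a description of the letters. Its lack in the 4 overlapped promoters says only that the letters are not in this window. Genome sequence at the peaks was not used here.

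The microRNA genes nearest to bound regions were MIR7704, MIR196A1, MIR196B, MIR196A2 and MIR10A, chosen after their distances were seen. Mature sequences are written with the seed, bases 2 to 8, in capitals. The miR-196a-5p sequence is made from both MIR196A1 and MIR196A2, and it shares its seed with miR-196b-5p.
miR-196a-5p: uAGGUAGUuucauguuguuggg
miR-196b-5p: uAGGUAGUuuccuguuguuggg
miR-10a-5p: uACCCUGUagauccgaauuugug
miR-7704: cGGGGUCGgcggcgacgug

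RUNX1 peaks lay in all 4 HOX clusters, most of them ranked in the weaker part of their lists, and nearly all came from the replicate 2 lists. The 4 windows held 3 peaks of WT replicate 1, 4 of 4A replicate 1 and 1 of 4D replicate 1. In replicate 2 they held 23 peaks of WT, 23 of 4A and 18 of 4D. The whole lists had 6764, 6266 and 5358 peaks in replicate 1 and 25911, 24251 and 21122 in replicate 2, in the same order of lines. Replicate 2 thus had 8 times as many HOX peaks as replicate 1 (64 against 8) from lists that were together 3.88 times as long. HOX peaks made up 0.0444% (WT), 0.0638% (4A) and 0.0187% (4D) of the replicate 1 lists, and 0.0888%, 0.0948% and 0.0852% of the replicate 2 lists. The share was higher in replicate 2 than in replicate 1 in each line, and list length moved with it, whose part in this was not tested. The files give no read totals and depth is unknown, so a region missing from a list was not detected there, which does not show it to be unbound.

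No difference between the lines in this share passed a test, and the design could not have given a p below 0.05. WT averaged 0.0666 ± 0.0314% of the list, 4A averaged 0.0793 ± 0.0219% and 4D averaged 0.0519 ± 0.0471% (SD, n = 2). A two-sided exact permutation test of the log share over the 3 lines gave p = 0.667, where the smallest this design allows is 0.0667. Each of the 3 pairs of lines gave an exact permutation p = 0.667 (adjusted p = 0.667 over the pairs), where 2 libraries against 2 cannot go below 0.333. Within each replicate number 4A had the highest share and 4D the lowest, and permuting the lines within numbers gave an exact p = 0.167, the smallest possible there. The 4D windows held 0.333 (replicate 1) and 0.783 (replicate 2) times as many peaks as those of WT, beside 0.792 and 0.815 for the whole lists.

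**Figure D1:**
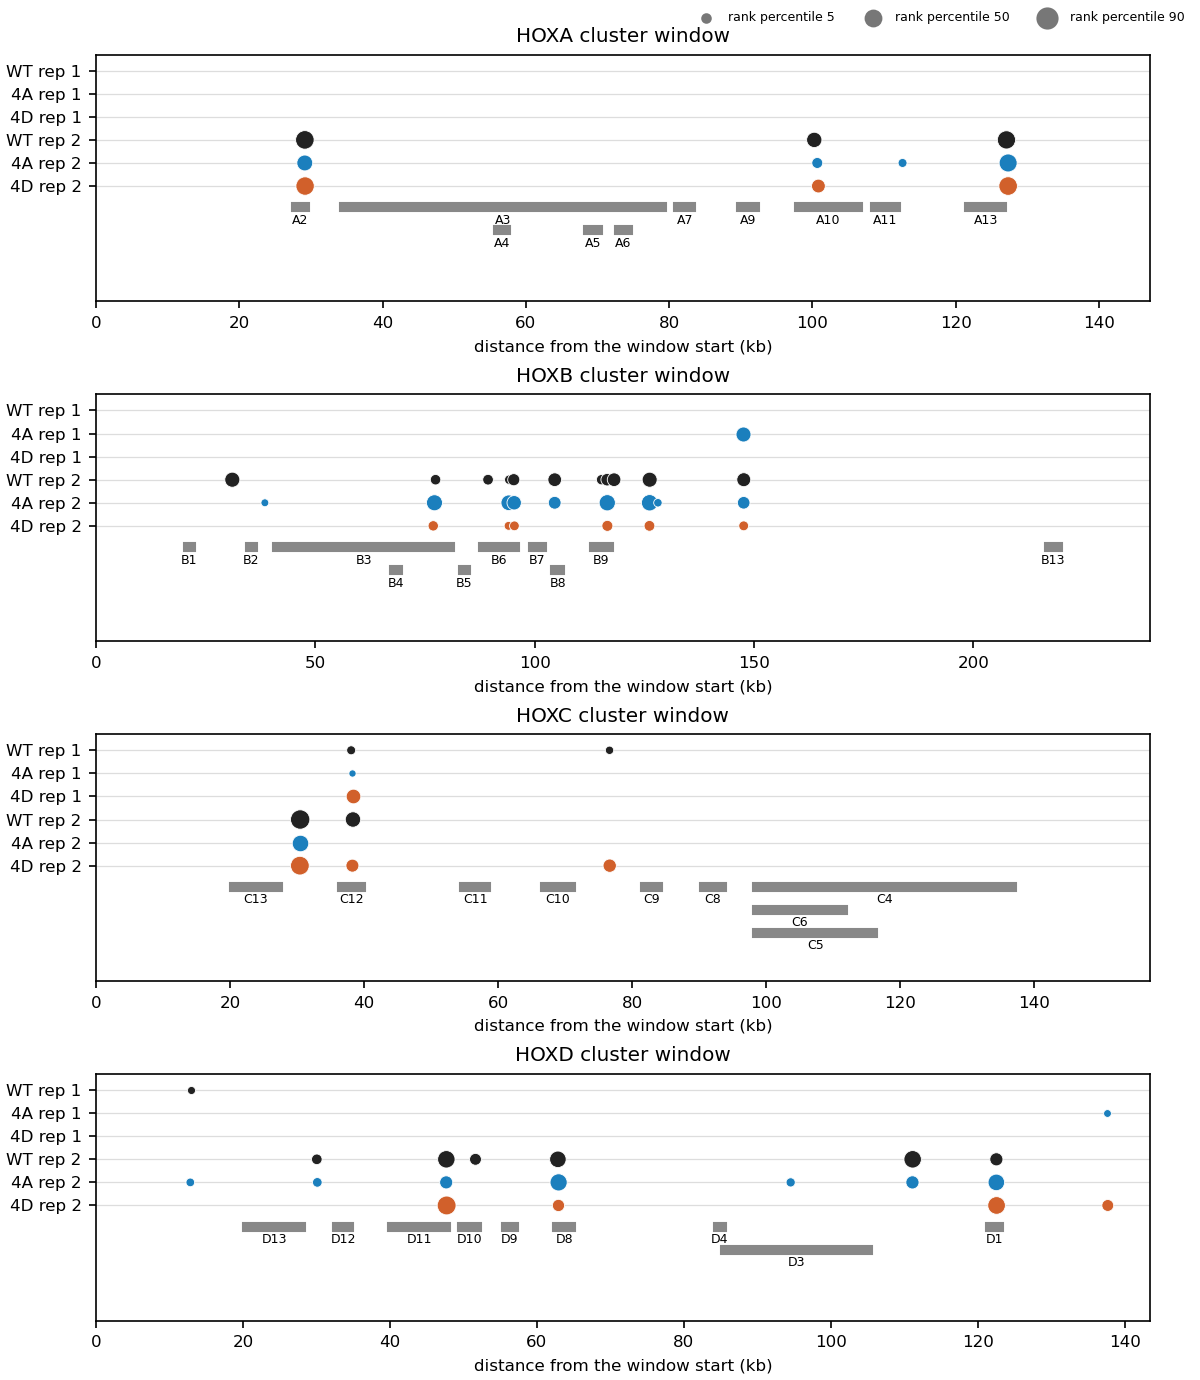
Each panel is a cluster window, with distance from its start in kb on the horizontal axis and 1 row per library. Points mark the summit of the strongest peak of each called region, with size by its percentile rank of −log10 q within its list, and grey bars are genes named by cluster letter and number, with 1 gene and its region left out. The replicate 2 rows hold most points, and the stretch over A4 to A7 in HOXA, the stretch over C8 and C4 to C6 in HOXC and the B13 end of HOXB hold none.

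Merged over the 6 lists, the peaks gave 5 regions in HOXA, 13 in HOXB, 3 in HOXC and 9 in HOXD. A region is a stretch where peaks of any lists overlap by at least 1 bp, and it is called in a library when it holds a peak of that list. This makes 34.0, 54.1, 19.1 and 62.8 regions per Mb, against 11.0 per Mb over the genome up to the last protein-coding gene end of each chromosome. The HOX windows hold 39 HOX genes in 688 kb, beside 20033 protein-coding genes in 3051652 kb of that genome span. Whether gene density bears on the number of regions per Mb was not tested. Of the 30 regions, 10 lay within 1 kb of an end of a HOX gene, 9 more lay inside a HOX gene and 11 lay elsewhere. An end here is either border of a gene, its start included.

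No HOX region was called in all 6 libraries, while 9.84% of all regions were. Each of the 30 was called in at least 1 replicate 2 list and 6 in any replicate 1 list (27.4% of all regions were). In all 3 replicate 2 lists 14 were called (46.7%, against 45.6% of all regions), of which 12 were in no replicate 1 list (12 of 30, against 22.3% of all regions). Another 9 were called in a single library (30.0%, against 34.5% of all regions), 5 of them in WT replicate 2 and 4 in 4A replicate 2. Called in both replicates of a line were 1 region in WT, 2 in 4A and 1 in 4D, 3 different regions in all, or 10.0% of HOX regions against 25.2% of all regions. With all 6 lists cut to the length of the shortest, 0 HOX regions were called in both replicates of a line or in all replicate 2 lists. At that length the windows held 0 peaks of WT replicate 1 and 0 of 4A replicate 2. The counts for WT, for 4A and for all replicate 2 lists could thus only be 0. The share of all regions was not taken at that length.

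**Figure D2:**
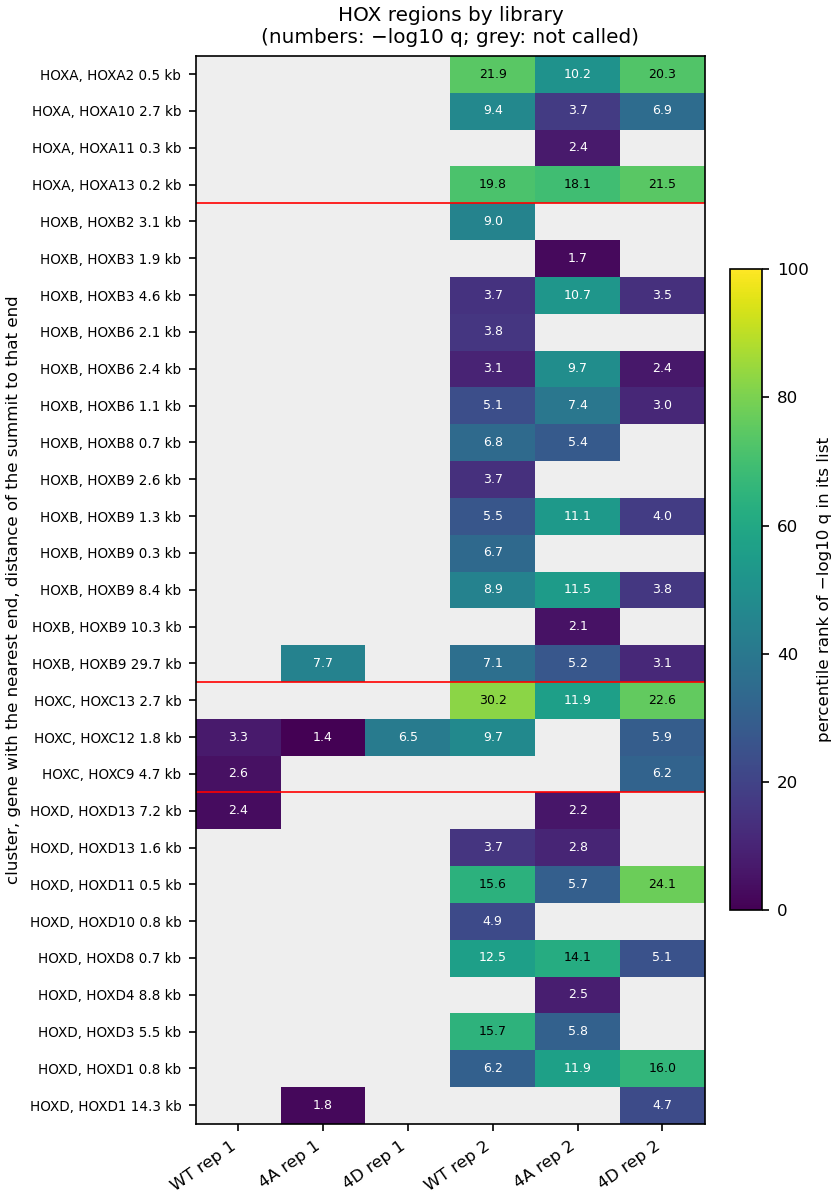
Rows are HOX regions, 1 of the 30 left out, in genome order within each cluster, labelled by the HOX gene with the nearest end and the distance of the summit to it, and columns are the 6 libraries. Colour is the percentile rank of the peak's −log10 q within its list, the printed number is that −log10 q and grey means not called. Only the HOXC12 row is filled in all 3 replicate 1 columns, and it is empty in 4A replicate 2.

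By rank within their own lists, HOX peaks stood below the middle. The percentile rank used here runs from 0 for the weakest to 100 for the strongest −log10 q of a list, and q is the authors' p-value adjusted within the list. The median rank of HOX peaks was 36.4 in WT, 31.1 in 4A and 27.3 in 4D in replicate 2, where the median of a whole list is 50. Above that middle lay 22 of the 64 replicate 2 peaks (34.4%) and 0 of the 8 replicate 1 peaks. Only 2 HOX peaks stood above percentile 80 of their list, both in WT replicate 2. The median fold enrichment over background of HOX peaks in replicate 2 was 5.32 (WT), 4.52 (4A) and 4.42 (4D), beside 6.19, 5.08 and 5.68 for the whole lists. These ranks and folds are the authors' values per peak, and since the lists differ in length they show no change between lines.

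**Figure D3:**
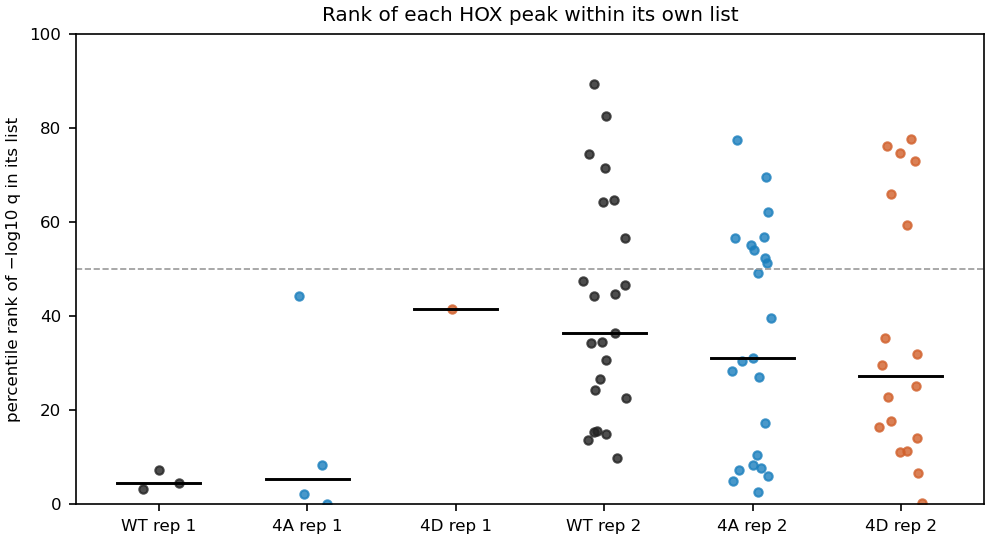
Each point is a HOX peak, with the percentile rank of its −log10 q within its own list on the vertical axis, and black bars are medians. The dashed line marks the middle of a list, and 22 of 64 replicate 2 peaks and 0 of 8 replicate 1 peaks lie above it.

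In the HOXA cluster regions were called at the anterior end and in the posterior part, and none between. A region inside HOXA2 (chr7:27101918-27102407) lay 0.276 kb from the gene's start. Its −log10 q was 21.9 in WT, 10.2 in 4A and 20.3 in 4D in replicate 2. HOXA2 patterns the hindbrain and the second branchial arch. At the other end of the cluster a region covered the start of HOXA13, the most posterior gene, and that of HOTTIP (chr7:27199765-27200569), with −log10 q of 19.8, 18.1 and 21.5 and fold enrichments of 10.3, 8.22 and 10.1 in WT, 4A and 4D replicate 2. This is the promoter whose letters are given above. Neither the HOXA2 nor the HOXA13 region was called in any replicate 1 list.

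Between these ends lay 70.3 kb without a called region (27102408 to 27172743), which holds HOXA3, HOXA4, HOXA5, HOXA6, HOXA7 and HOXA9 whole. HOXA9, the HOX gene best known from leukemia, had its nearest region 7.21 kb away. That region, named here after its values were seen, lies inside HOXA10, which acts in blood progenitors as well (chr7:27172744-27174089). Its −log10 q was 9.45 in WT, 3.74 in 4A and 6.93 in 4D in replicate 2, at most percentile 46.5 of a list. MIR196B lay 3.18 kb from it. A further weak region was called 0.266 kb from HOXA11 in 4A replicate 2 alone (−log10 q 2.44).

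The HOXB cluster had the most regions, 13 of the 30, and none stood above percentile 60 of a list. The replicate 2 lists called 11 of its 13 regions in WT, 9 in 4A and 6 in 4D, beside 76.3%, 71.0% and 61.5% of all regions. The 6 regions called in all 3 of these lists had −log10 q between 2.43 and 11.5. Their median percentile rank was 25.4 in WT, 50.8 in 4A and 12.7 in 4D replicate 2, and they spread from HOXB3 through HOXB6 to HOXB9 and beyond it. HOXB3, HOXB4 and HOXB6 are the members of this cluster most studied in blood. Within 1 kb of a gene end lay 1 region inside HOXB8 (−log10 q 6.82 in WT and 5.38 in 4A replicate 2) and 1 beside HOXB9, in WT replicate 2 alone (6.68).

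A single HOXB region was called in replicate 1. It lay 29.6 kb from HOXB9, on the side of HOXB13 and inside the noncoding gene LINC02086 (chr17:48655942-48656304). In 4A its −log10 q was 7.67 in replicate 1 and 5.17 in replicate 2, with fold enrichments of 7.22 and 3.76. In WT and 4D it was called only in replicate 2 (7.14 and 3.11). From there to the end of the window, 92.4 kb that include HOXB13, a gene of the prostate and hindgut, no region was called. The microRNA genes MIR196A1 and MIR10A lay 2.03 and 5.24 kb from regions called in all 3 replicate 2 lists.

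The HOXC cluster held only 3 regions, all in its posterior part. A region inside HOXC12, a posterior gene (chr12:53956758-53957375), was called in 5 libraries, more than any other HOX region. WT replicates 1 and 2 gave −log10 q of 3.30 and 9.67 there, with fold enrichments of 5.11 and 6.13. The 4D replicates gave 6.53 and 5.95, with fold enrichments of 6.77 and 4.55. For 4A it was 1.44 in replicate 1, with a fold enrichment of 4.14, and the region was not called in replicate 2. The 4A replicate 1 value stood at percentile 0.112 of its list. So the region was called in both replicates of WT and of 4D and in a single replicate of 4A, and whether 4A differs there was not tested.

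Between HOXC13, a gene of hair and nails, and HOXC12 a stronger region (chr12:53949013-53949882) had −log10 q of 30.2 in WT, 11.9 in 4A and 22.6 in 4D replicate 2, and percentile ranks of 82.4, 56.6 and 76.05. No replicate 1 list called it. The last HOXC region, 3.55 kb from MIR196A2 and within 10 kb of HOXC9 and HOXC10, was called in WT replicate 1 (−log10 q 2.63) and 4D replicate 2 (6.24). The remaining 80.4 kb of the window, with HOXC4, HOXC5, HOXC6, HOXC8 and HOXC9, held none.

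In the HOXD cluster 9 regions were called, of which 3 were in all replicate 2 lists and none in both replicates of a line. The highest-ranked in 4D replicate 2 lay inside HOXD11, a limb and kidney patterning gene, 0.402 kb from its downstream end (chr2:176114932-176115277). Its −log10 q was 15.6 in WT, 5.65 in 4A and 24.1 in 4D replicate 2. A region over HOXD8 (chr2:176129750-176130912) had −log10 q of 12.5, 14.1 and 5.12, and its 4A peak reached 5 bp into the listed HOXD8 promoter.

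Inside HOXD1, the most anterior gene of the cluster, a region lay 0.497 kb from the gene's downstream end (chr2:176189780-176190410). Its −log10 q was 6.17, 11.9 and 16.02 in WT, 4A and 4D replicate 2. MIR7704 lay 0.879 kb from it. Between HOXD3 and HOXD1 a region in the noncoding genes HAGLR and HAGLROS (chr2:176178435-176178771), named after its values were seen, had −log10 q of 15.7 in WT and 5.80 in 4A replicate 2 and was not called in 4D. In WT replicate 2 it was the highest-ranked HOXD region, at percentile 64.6, and in 4A replicate 2 that was the HOXD8 region, at 62.0. Inside HOXD10 a region was called in WT replicate 2 alone (−log10 q 4.86). The replicate 1 lists had a region 7.04 kb from HOXD13, within the neighbouring gene EVX2, in WT (2.40) and 1 at 14.0 kb beyond HOXD1 in 4A (1.80). The first was found again only in 4A replicate 2 and the second only in 4D replicate 2, so neither recurred in its own line.

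Read by gene, more than 20 of the 39 HOX genes lay near a RUNX1 region in each replicate 2 list, and few did in both replicates of a line. A gene was called when a region lay within 10 kb of either of its ends. The replicate 2 list of WT called 26 of 39 HOX genes, that of 4A 26 and that of 4D 23, where 55.0%, 54.9% and 50.2% of all protein-coding genes were called. In replicate 1 the counts were 4, 3 and 1 of 39, beside 26.3%, 22.7% and 20.2% of all genes. Called in both replicates were HOXC12 in WT (1 of 39, background 25.7%), 2 genes of HOXA in 4A (2 of 39, background 22.0%) and HOXC12 in 4D (1 of 39, background 19.7%). The 2 HOXA genes share a single region. None was near a region called in all 6 libraries, which 14.6% of all genes were.

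How these counts stood to the background depended on distance and on the peaks used. Within 2 kb of a gene end the replicate 2 lists called 12 of 39 HOX genes (WT), 14 (4A) and 10 (4D), beside 42.5%, 42.4% and 37.8% of all genes, so that the HOX share moved from above the background to below it. At that distance 9 of 39 were called in all replicate 2 lists (background 33.0%). The replicate 1 lists called 1 (WT), 2 (4A) and 1 (4D) of 39, beside 18.6%, 15.1% and 13.5%. In both replicates of WT, of 4A and of 4D it was 1 of 39 each, beside 18.1%, 14.7% and 13.2%. With all lists at the length of the shortest, at 10 kb, the replicate 2 lists called 4 (WT), 0 (4A) and 5 (4D) of 39, beside 18.5%, 18.9% and 17.6% of all genes. Neighbouring HOX genes lie close together and share regions, so they are not independent counts.

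**Figure D4:**
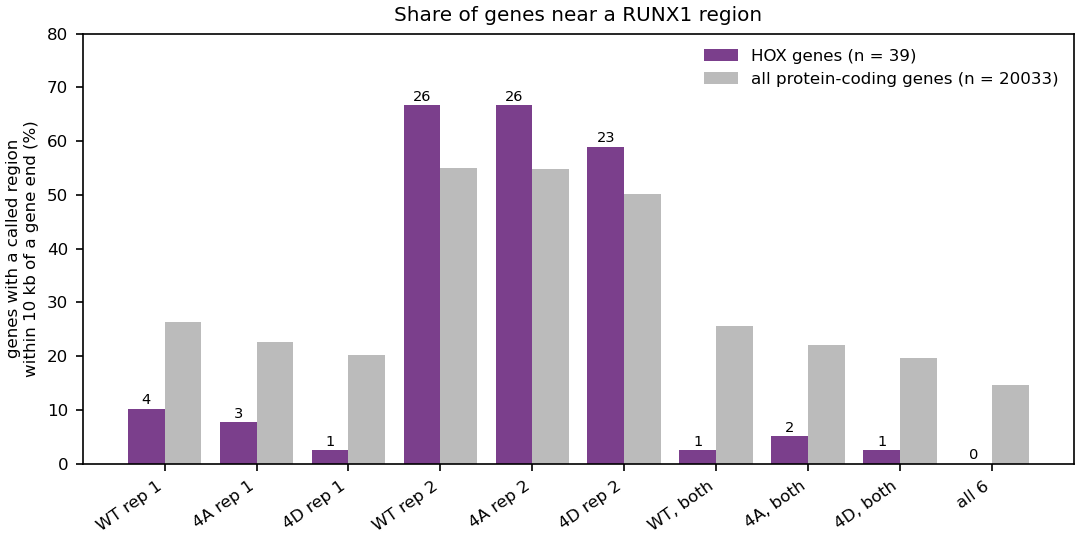
Bars give the percent of genes with a called region within 10 kb of a gene end, for the 39 HOX genes (purple, with their number above) and all 20033 protein-coding genes (grey), in each list, in both replicates of a line and in all 6 lists. HOX bars stand above grey in replicate 2 and below it in replicate 1 and in both replicates.

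Across the 6 libraries 29 of the 39 genes were called at least once (background 61.9%), and 21 were near a region called in all 3 replicate 2 lists (background 43.8%). The second count was 11 (background 36.9%) at −log10 q values of 5 or more, below the background. At the length of the shortest list it was 0 (background 13.7%). It could only be 0 there, since the windows then held 0 peaks of 4A replicate 2. With windows around summits it was 15 (background 41.1%), slightly below. With equal lengths within each replicate number it was 19 (background 41.7%), above the background. Counting whole gene bodies and 10 kb to either side it was 21 (background 48.4%), also above. HOXC12 alone had a call in each library, from the region inside it and the region between it and HOXC13. In 4 libraries 2 genes were called, 19 genes in 3, 5 genes in 2, and HOXB1 and HOXD4 in 1. The 10 genes with no call were HOXA4, HOXA5, HOXA6, HOXA7, HOXB13, HOXC4, HOXC5, HOXC6, HOXC8 and HOXC11. By paralog group, 10 of 12 genes of groups 1 to 4 were called at least once, 5 of 11 of groups 5 to 8 and 14 of 16 of groups 9 to 13. In any replicate 1 list these numbers were 2, 0 and 4, or 6 of 39 in all (background 31.6%).

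Few HOX regions of replicate 2 were found again in replicate 1 of the same line. Over the genome 24.97% (WT), 23.9% (4A) and 24.1% (4D) of the regions of a replicate 2 list were also called in replicate 1 of the line. For HOX regions this was 1 of 23, 2 of 22 and 1 of 17. The share rises with rank, from 2.43% of the WT regions up to percentile 20 to 69.9% of those above percentile 80. Among regions above percentile 60, 0 of 6 HOX regions in WT, 1 of 3 in 4A and 0 of 5 in 4D were found again, beside 50.3%, 47.5% and 47.7% of all such regions. The HOX numbers are small and share regions between lines, and no test was made of this difference.

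**Figure D5:**
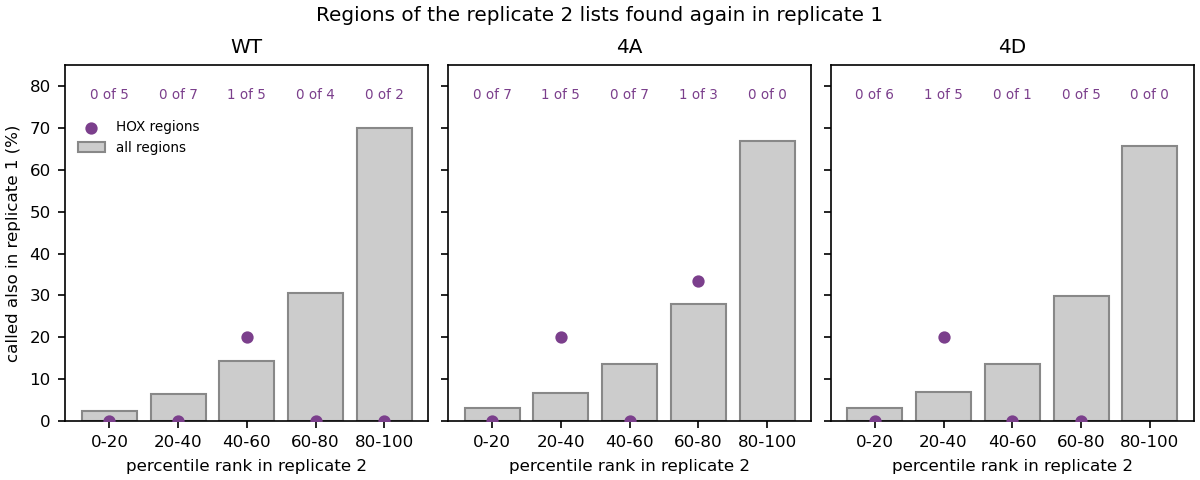
For each line, regions of its replicate 2 list are split by their percentile rank in that list (horizontal axis), and the vertical axis gives the percent also called in replicate 1. Grey bars are all regions, purple points HOX regions with their counts above, and the HOX counts are 0 in most bins while the grey bars climb to 65.6 to 69.9%.

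Of the genes that regulate or flank the clusters, a larger share than of all genes had regions in both replicates of each line. This share was under 50% in each line. The list of 63 such genes holds cofactors, activators of the MLL complex and its partners, Polycomb and CTCF genes, and genes that flank the clusters. In both replicates of WT 30 of 63 were called, in those of 4A 24 and in those of 4D 22 (background 25.7%, 22.0% and 19.7%), and 17 had a region in all 6 libraries (background 14.6%). By role these 17 were 4 of 11 cofactors, 5 of 20 activators, 3 of 18 repressors and insulators and 5 of 14 flanking genes. MEIS1 and KMT2A had no call in replicate 1, with MEIS1 called in replicate 2 of WT and 4A and KMT2A in replicate 2 of all 3 lines. The list was drawn up with earlier results of these data known, and no test was made of it.

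Among the cofactors, regions near PBX2 and PKNOX1, which encode homeodomain partners of HOX proteins, ranked high. Regions were assigned by distance to the listed genes alone, and whether another gene lies nearer was not examined. The PBX2 region (chr6:32195450-32196744, 5.25 kb from the gene) reached −log10 q values of 33.8 (replicate 1) and 119 (replicate 2) in WT. It reached 37.2 and 86.5 in 4A, and 13.6 and 108 in 4D. That of PKNOX1 lay over the gene's end, with 36.3 (replicate 1) and 71.6 (replicate 2) for WT, 16.3 and 60.3 for 4A, and 10.1 and 44.0 for 4D. MEIS3, another partner, had a region 5.90 kb away. Among the activators, MEN1, which encodes menin, had a region 0.221 kb from its end with fold enrichments between 11.3 and 21.4 in the 6 lists. PSIP1, which encodes the chromatin tether LEDGF, and DPY30, a core subunit of MLL complexes, were also called in all 6.

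Of the flanking genes, MTX2, which encodes a mitochondrial protein and lies beyond HOXD1, had a region over its end. WT showed −log10 q of 29.8 (replicate 1) and 71.3 (replicate 2), 4A showed 25.95 and 59.1, and 4D showed 5.44 and 51.2. TTLL6, beyond HOXB13, and CALCOCO1 and CBX5, on the 2 sides of HOXC, had regions in all 6 libraries as well. CBX5 encodes heterochromatin protein 1α.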

How the data were processed

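Peak lists were analysed for 6 of 8 CUT&RUN libraries, 1 list per library. Per the submitters' processing notes, MACS2 2.2.7.1, Bowtie2 2.4.2, cutadapt 3.4, deepTools 3.5.1 and Picard 2.25.6 were used on hg38. Read filters, and whether background libraries were pooled, are unknown from the sources used here. Each deposited peak carries the authors' score, fold enrichment over the empty vector (a ratio on a linear scale), −log10 p-value, −log10 q-value and summit. After leaving out 3 to 19 peaks a list on other contigs, the peaks of all lists were merged (Python 3.11.15, pandas 2.3.3), and the steps were tested on simulated peaks. Where a region held several peaks of a list the strongest is given. Transcription starts were listed for 20 of 39 HOX genes, so gene ends were used. The members and lists were chosen with earlier results of these data known. Values are given for regions that both replicates of a line hold, the 5 others of highest rank and those within 1 kb of a HOX gene end, and for at most 10 regulators with a region in all libraries. Replicates are biological per the series design. Replicate numbers are not stated to mark a shared batch. The alternatives tried were a −log10 q of at least 5, equal list lengths, summit windows of 100 bp to either side, flanks of 0 and 50 kb, other gene distances and each replicate left out. A gene of HOXA and the region over it enter the counts but are not reported here by name or value.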

Additional observations from a re-analysis of the deposited data

How the results depend on the processing

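The counts for both replicates of a line rest on 1 or 2 regions. HOX regions in the set fell to 0 in WT and 1 in 4A at −log10 q values of 5 or more and with equal lengths within each replicate number. They fell to 0 in WT, 4A and 4D with all lists at one length, and to 1 in 4A with summit windows. With flanks of 50 kb they rose to 2 in WT and 3 in 4A. HOX genes in the set fell to 0 in WT and 4A at −log10 q values of 5 or more and with equal lengths within each number, to 0 in all 3 lines at one length, to 0 in 4A with summit windows and to 1 in 4A within 2 kb. The share of all genes in the set was 21.3% (WT) and 16.9% (4A) at the stricter q, 21.1% and 19.4% at equal lengths, 13.5%, 13.2% and 12.3% (4D) at one length, 20.7% (4A) with summit windows and 14.7% (4A) within 2 kb. With a single replicate the regions ranged from 3 to 23 (WT), 4 to 22 (4A) and 1 to 17 (4D), and the genes from 4 to 26, 3 to 26 and 1 to 23, with the low values from replicate 1. The 14 regions and 21 genes in all replicate 2 lists were examined under alternatives chosen after seeing the data. At −log10 q values of 5 or more they became 7 and 11, beside 36.9% of all genes. At one length they were 0 and 0, beside 13.7%, and could only be 0, with 0 peaks of 4A replicate 2 in the windows. Summit windows gave 10 regions and 15 genes, beside 41.1%. Within 2 kb the genes were 9, beside 33.0%. Flanks of 0 and 50 kb gave 14 and 18 regions. With equal lengths within each replicate number the regions and genes were 12 and 19, beside 41.7% of all genes. With whole gene bodies and 10 kb the genes stayed 21, beside 48.4%. Leaving out each replicate 2 list in turn gave 14 to 17 regions and 21 to 24 genes. The count of 0 regions in all 6 libraries stayed 0 under each alternative run. The stricter q, the shortened lists and the flanks of 0 kb could not have raised it, so they give it no support. The test of the HOX share over lines gave an exact permutation p = 0.167 with the replicate number as a block, and from 0.133 to 0.933 with each library left out. For the stricter q and the shortened lists a library with no HOX peak has no log share, and the untransformed share, also chosen after seeing the data, gave an exact permutation p from 0.867 to 1.0 there and p = 0.667 with the full lists. Calls by distance to a start site were not run, and leaving out a replicate gives no other value for a single list. Depth per library is unknown, which limits any reading of uncalled regions.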

Other observations

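Just outside the windows, between 20 and 50 kb from the genes, lay 7 further regions, beside the outermost region inside at 14.0 kb. On the HOXB1 side 5 regions followed each other from 34.05 to 49.9 kb before the cluster, of which 3 were called in all replicate 2 lists (−log10 q from 4.12 to 13.3) and 0 in replicate 1. A region 39.1 kb beyond HOXD1 (chr2:176229965-176230683) was called in both replicates of WT (−log10 q 3.39 and 30.5) and 4A (2.86 and 28.5) and in replicate 2 of 4D (12.8).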
